A study of Mus musculus with 2 samples.

Results

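The intracellular effectors and feedback genes of the canonical Wnt pathway were described by RNA sequencing of 2 libraries. The cells came from breast tumours of mice of the inbred FVB strain. They are 10 genes chosen by symbol (Tcf7, Lef1, Tcf7l1, Tcf7l2, Ctnnb1, Axin1, Axin2, Apc, Nkd1 and Nkd2) out of 22558 in each table, and all 10 were found. The TIC library was made from tumour-initiating cells, the fraction able to start a new tumour, and the NTC library from non-tumorigenic cells. Both kinds of cell were dissociated from tumours and sorted by flow cytometry at once, without treatment. The labels name no transgene, age, tumour driver or sorting antigen, and do not say how many tumours or animals were pooled. With 1 library per group there is no replicate error, so no test, SD or p-value can be given, and each difference is between these 2 libraries. As the libraries are bulk samples, fewer cells of a type and less RNA per cell cannot be told apart.

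When a Wnt ligand binds its receptors, the cytoplasmic complex of Axin, Apc and kinases that marks beta-catenin (Ctnnb1) for destruction is held back, and beta-catenin enters the nucleus. There it binds the TCF/LEF factors, which sit on DNA through an HMG box and otherwise recruit co-repressors, and switches on target genes. Some targets, such as Axin2 and Nkd1, restrain the pathway in turn. In the mammary gland the basal layer holds cells that respond to Wnt ligands, some of which are made by luminal cells.

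The 2 libraries differed in which TCF/LEF factor was the main one. Tcf7 made up 73.0% of the summed level of the 4 TCF/LEF genes in TIC and 5.69% in NTC, whereas Tcf7l2 made up 13.3% in TIC and 76.4% in NTC. The feedback inhibitors Nkd1 and Nkd2 and beta-catenin itself also had higher levels in TIC, and the scaffolds Axin1, Axin2 and Apc lay within 2-fold. Levels are in FPKM (fragments normalised for transcript length and sequencing depth), and levels of different genes are set side by side on this scale. Such comparisons between genes can be shifted by amplification of the RNA and by the transcript length assumed. Ratios are log2((TIC + 1)/(NTC + 1)), in which 1 FPKM is added to each level, a scale that understates differences of low genes.

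At a threshold of 2-fold, 5 of the 10 members were higher in TIC and 1 was lower. The same held for 14.6% (higher) and 13.8% (lower) of the 12004 genes whose mean reached 1 FPKM, here called measured. All 10 members were measured. Their median log2 ratio was 0.86, against -0.16 over all measured genes, whose quartiles were -0.63 and 0.39. Member ratios ran between -1.81 for Tcf7l2 and 4.24 for Tcf7, so the set held both directions and did not move as one. Without Lef1, which rests on a value of 0 in NTC, 4 of the other members were at least 2-fold higher and the median was 0.48.

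**Figure D1:**
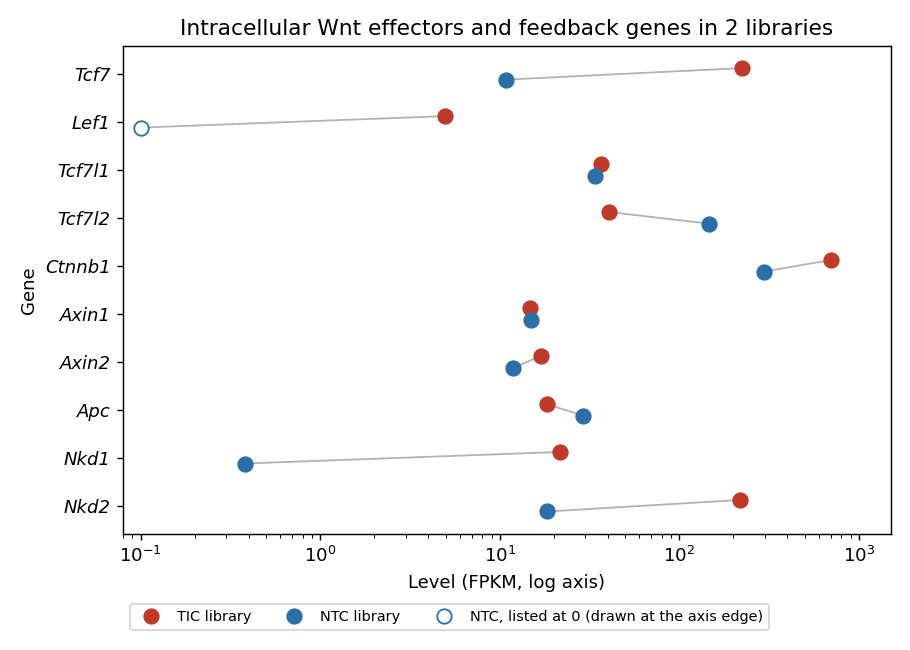
Level of each member in FPKM on a log axis, with 1 filled point for the TIC library and 1 for the NTC library, and an open point at the axis edge for the value listed at 0. Tcf7, Lef1, Nkd1 and Nkd2 show the widest gaps, and the points of Axin1 and Tcf7l1 lie close together.

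The 4 TCF/LEF factors are paralogs, and their coding sequences were compared because a difference in which factor is present depends on reads being told apart. The stretch of 120 coding bases most alike in all 4 is shown. For each gene it was taken from the protein-coding transcript with the most bases in total in GENCODE release M21 (build GRCm38). It starts at coding base 676 of Tcf7, 1003 of Lef1, 1141 of Tcf7l1 and 1093 of Tcf7l2, and belongs to the HMG box. Capitals mark bases that differ from Tcf7.
Tcf7: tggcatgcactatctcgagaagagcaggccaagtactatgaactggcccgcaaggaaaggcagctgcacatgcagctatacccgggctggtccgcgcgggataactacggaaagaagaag
Lef1: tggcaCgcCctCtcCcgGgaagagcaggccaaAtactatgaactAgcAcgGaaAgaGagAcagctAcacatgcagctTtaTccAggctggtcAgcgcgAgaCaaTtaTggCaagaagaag
Tcf7l1: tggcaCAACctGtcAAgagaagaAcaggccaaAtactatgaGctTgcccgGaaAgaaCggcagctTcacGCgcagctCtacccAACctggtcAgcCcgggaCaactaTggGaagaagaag
Tcf7l2: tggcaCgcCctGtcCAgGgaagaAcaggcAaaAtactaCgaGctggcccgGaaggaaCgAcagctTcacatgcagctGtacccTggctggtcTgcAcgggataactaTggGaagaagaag
In this stretch, Lef1 shared 98 of 120 bases with Tcf7, Tcf7l1 shared 94 and Tcf7l2 shared 99. The longest run of identical coding bases between any 2 of the 4 factors was 23. No stretch of 50 bases in the Tcf7, Tcf7l1 or Tcf7l2 transcript occurred in a transcript of another annotated gene, on either strand. In Lef1, 33.8% of such stretches did, all of them shared with the antisense gene Gm43352. The sources used here do not say that counting used strand, so reads of Lef1 and of that gene cannot be told apart.

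Tcf7 (chromosome 11, 52066106 to 52095752 in mm9), which encodes the factor TCF1, had 223 FPKM in the TIC library, against 10.8 FPKM in the NTC library. Its log2 ratio of 4.24 was the 199th highest of the 12004 measured genes. In TIC it ranked 187th in level of all genes, and in NTC 6125th. Tcf7 is also a well-known gene of T cells, so T-cell markers were read in the same libraries. Cd3d, Cd3e and Cd3g, which encode chains of the T-cell receptor complex, were listed at 0 in both libraries, and 17 of 19 T and NK cell markers had less than 1 FPKM in both, 12 of them listed at 0 in both. An exact 0 is not read as absence in these files, since the respiratory chain gene Ndufs5, needed in all respiring cells, also has a listed 0 in each library. The marker with the highest value was Cd247, with 5.15 FPKM in the TIC library, against 5.31 FPKM in the NTC library. The chemokine receptor Ccr7 had 3.67 FPKM in the TIC library, against a listed 0 in the NTC library. The 19 markers summed to 9.63 FPKM in TIC and 5.77 FPKM in NTC. The part of T cells in the level of Tcf7 was not tested.

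Lef1 (chromosome 3, 130813389 to 130926249), the relative named for lymphoid enhancers, had 4.98 FPKM in the TIC library, against a listed 0 in the NTC library, so no fold is given. A single read of a transcript of its length would be worth about 0.013 FPKM in NTC at the estimated depth. The 0 is not read as absence, as for the T-cell markers. Where Lef1 was present it was the minor factor, at 1.63% of the TCF/LEF sum in TIC, and Tcf7 exceeded it there by 44.7-fold.

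Tcf7l1 (chromosome 6, 72576374 to 72738950), which encodes TCF3, a factor known mainly as a repressor of Wnt targets, had 36.8 FPKM in the TIC library, against 34.0 FPKM in the NTC library. The log2 ratio of 0.11 placed it among the genes within 2-fold. It was the factor with the most similar level in both libraries, and held 12.1% of the TCF/LEF sum in TIC and 17.9% in NTC.

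Tcf7l2 (chromosome 19, 55816300 to 56008145), which encodes TCF4, the main TCF of the intestinal epithelium, was the only member at least 2-fold lower in TIC. It had 40.7 FPKM in the TIC library, against 145 FPKM in the NTC library, a log2 ratio of -1.81, and 712 measured genes had a lower ratio. It was the 335th highest gene of the NTC library and the 1623rd of the TIC library. Within TIC, Tcf7 exceeded Tcf7l2 by 5.48-fold, and within NTC, Tcf7l2 exceeded Tcf7 by 13.4-fold. The summed level of the 4 factors was 305 FPKM in TIC and 190.3 FPKM in NTC, a 1.60-fold difference, so the makeup of the sum differed more than its size. Genes of this family, Tcf7 and Lef1 among them, also make forms that lack the beta-catenin-binding start of the protein, and the deposited values, 1 per gene, do not separate forms.

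**Figure D2:**
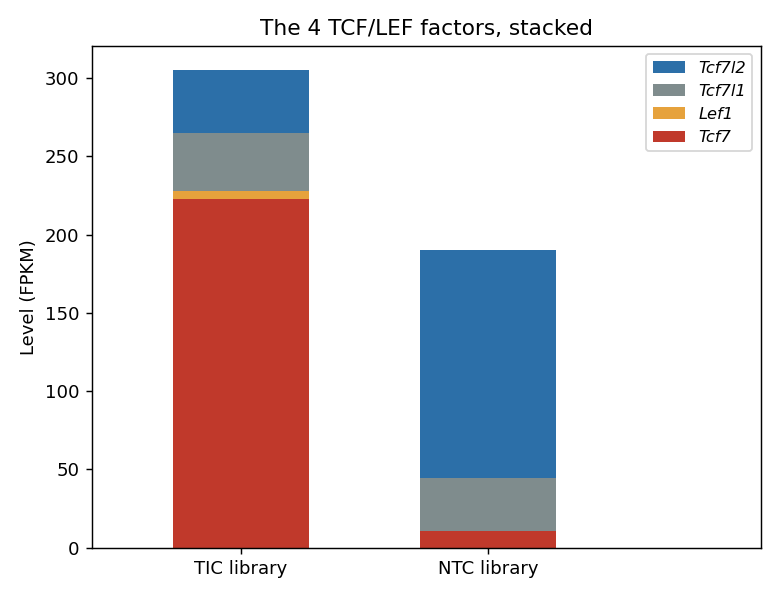
Stacked levels in FPKM of the 4 TCF/LEF genes, with 1 bar per library starting at 0. The TIC bar is 305 FPKM high and mostly Tcf7, and the NTC bar is 190.3 FPKM high and mostly Tcf7l2.

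Ctnnb1 (chromosome 9, 120842518 to 120869625), which encodes beta-catenin, a protein both of the Wnt pathway and of cell-cell junctions, had 699 FPKM in the TIC library, against 295 FPKM in the NTC library. It had the highest level of the 10 members in both libraries, ranking 36th of all genes in TIC and 143rd in NTC. The log2 ratio was 1.24, a 2.36-fold difference in FPKM, the smallest of the 5 counted as higher. Its level was 2.29 times the TCF/LEF sum in TIC and 1.55 times in NTC. Ctnnb1 overlaps Ulk4 on the opposite strand, and 18.6% of the 50-base stretches of its transcript are shared with that gene. Ulk4 had 0.540 FPKM in the TIC library, against 0.882 FPKM in the NTC library, small beside Ctnnb1. As the RNA level of Ctnnb1 says nothing of protein stability, which the destruction complex sets, these values do not measure active beta-catenin.

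The scaffolds of the destruction complex all lay within 2-fold. Axin1 (chromosome 17, 26275631 to 26332756), the constitutive scaffold, had 14.8 FPKM in both TIC and NTC, with a log2 ratio of -0.0043. Axin2 (chromosome 11, 108781663 to 108812095), its relative and a widely used readout of Wnt signalling, had 17.0 FPKM in the TIC library, against 11.9 FPKM in the NTC library. Its log2 ratio of 0.48 did not reach 2-fold, and 2738 measured genes had a higher one. Of its transcript's 50-base stretches, 2.59% are shared with the antisense gene Gm11670. Axin2 exceeded Axin1 by 1.15-fold within TIC, while Axin1 exceeded Axin2 by 1.25-fold within NTC. Apc (chromosome 18, 34367429 to 34481844), the large scaffold lost in many intestinal tumours, had 18.2 FPKM in the TIC library, against 28.9 FPKM in the NTC library, a log2 ratio of -0.64. At a threshold of 1.5-fold Apc would count as lower. The 3 scaffolds together had 50.01 FPKM in TIC and 55.7 FPKM in NTC.

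Nkd1 and Nkd2 encode Naked cuticle proteins, which bind Dishevelled and restrain Wnt signalling. Nkd1 (chromosome 8, 91045243 to 91118786) had 21.6 FPKM in the TIC library, against 0.383 FPKM in the NTC library, a log2 ratio of 4.03. The NTC value rests on about 34 reads at the estimated depth and the TIC value on about 1851. Nkd2 (chromosome 13, 73956776 to 73985079) had 218 FPKM in the TIC library, against 18.4 FPKM in the NTC library, a log2 ratio of 3.50. Both paralogs were thus higher in TIC. In NTC the level of Nkd2 exceeded those of 66.0% of measured genes, and that of Nkd1 exceeded 4.57%. Nkd2 was the more abundant in both libraries, by 10.1-fold in TIC and 48.1-fold in NTC. Together they had 239.9 FPKM in TIC and 18.8 FPKM in NTC, a 12.7-fold difference, against a 1.19-fold difference for the Axin pair (31.8 FPKM in TIC, 26.8 FPKM in NTC). The longest identical run of coding bases was 20 between Nkd1 and Nkd2 and 21 between Axin1 and Axin2.

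**Figure D3:**
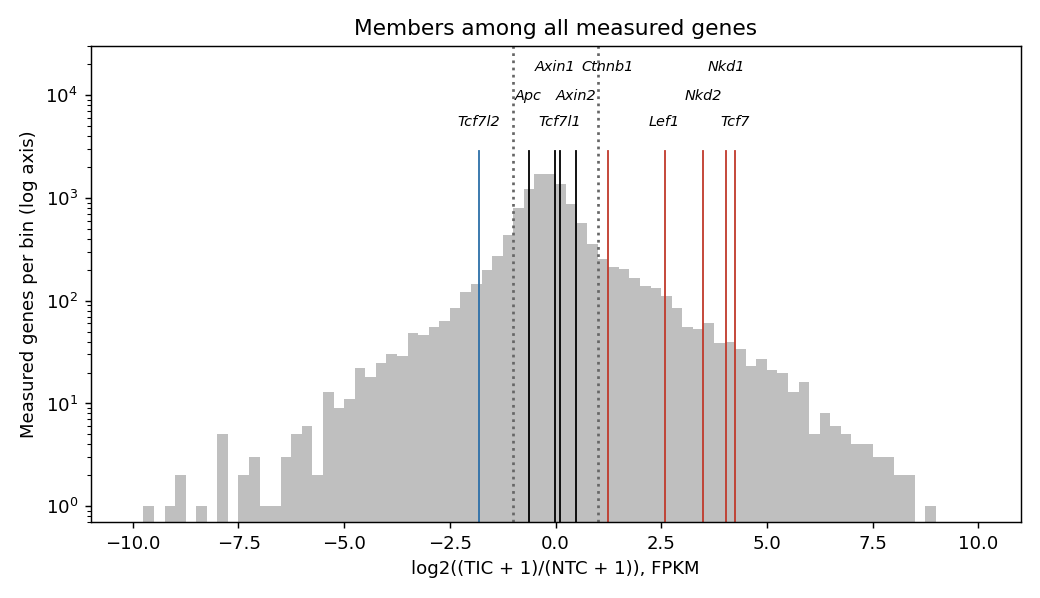
Histogram of log2((TIC + 1)/(NTC + 1)) over the 12004 measured genes, with a log count axis, dotted lines at 2-fold and a line for each member. Tcf7, Nkd1, Nkd2 and Lef1 lie in the right tail, Ctnnb1 just past the right dotted line, and Tcf7l2 past the left one.

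TCF/LEF factors bind DNA at short sequences, of which CTTTGA is 1 form. The promoter windows of the members were searched on both strands for that form alone, here called the core. Other forms, such as CTTTGT, were not searched for, so a window without the core may still hold a site. RefSeq windows of 300 bases (250 before a start and 50 after it, build GRCm38.p6) were at hand for 8 members, with 14 windows in all. The core was in 1 of these 14 windows and in 16.0% of 32851 windows of all genes. The match was in the most downstream start of Lef1, where the core occurs at 180 and 120 bases before the start. That window is shown with the single windows of Nkd1 and Nkd2, the paralog pair that was higher in TIC, each in the direction of its gene. Capitals mark the core, read here on the opposite strand as TCAAAG.
Lef1, chr3:131156044-131156343, plus strand: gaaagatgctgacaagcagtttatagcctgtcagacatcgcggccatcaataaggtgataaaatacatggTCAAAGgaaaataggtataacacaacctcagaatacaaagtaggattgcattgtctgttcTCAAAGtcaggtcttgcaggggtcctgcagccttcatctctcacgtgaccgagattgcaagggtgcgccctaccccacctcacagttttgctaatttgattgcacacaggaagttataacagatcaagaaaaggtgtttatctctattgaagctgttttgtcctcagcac
Nkd1, chr8:88527383-88527682, plus strand: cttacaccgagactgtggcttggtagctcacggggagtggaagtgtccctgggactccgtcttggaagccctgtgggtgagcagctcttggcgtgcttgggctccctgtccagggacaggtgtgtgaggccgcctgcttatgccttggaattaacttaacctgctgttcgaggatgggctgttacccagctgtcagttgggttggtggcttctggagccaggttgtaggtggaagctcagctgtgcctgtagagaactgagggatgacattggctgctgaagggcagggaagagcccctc
Nkd2, chr13:73847582-73847881, minus strand: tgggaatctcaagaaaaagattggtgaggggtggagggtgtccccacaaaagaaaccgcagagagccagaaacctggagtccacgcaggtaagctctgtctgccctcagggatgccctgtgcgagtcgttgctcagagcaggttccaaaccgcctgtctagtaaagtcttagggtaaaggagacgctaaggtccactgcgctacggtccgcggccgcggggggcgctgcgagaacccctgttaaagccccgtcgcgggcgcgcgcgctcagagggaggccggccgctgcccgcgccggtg
The Nkd1 window had 6 CpG and a GC content of 58.3%, and the Nkd2 window 26 CpG and 63.0%. The medians over all windows were 7 CpG and 52.7%. A link between CpG content and direction was not tested. The Lef1 window shown had 5 CpG and 43.7% GC. Matches describe these windows and say nothing of binding, and Wnt-responsive elements outside them were not searched.

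The other genes of the pathway differed by list. Of 22 measured genes of the destruction complex and its kinases, none reached 2-fold in either direction with 1 FPKM added. Their median log2 ratio was 0.08. Of all measured genes, 14.6% were at least 2-fold higher and 13.8% lower. On the log2 scale with 1 FPKM added, the furthest was Ppp2r5a (-0.88), a subunit of phosphatase PP2A, with 5.66 FPKM in the TIC library, against 11.2 FPKM in the NTC library. In plain FPKM, Siah1b lay past 2-fold (1.59 FPKM in TIC, 3.28 FPKM in NTC). Apc2 was listed but not measured (1.17 FPKM in TIC, 0.189 FPKM in NTC). Both were named after their values were seen. Among 13 measured genes that relay the signal at Dishevelled and the receptors, 3 were at least 2-fold higher and 1 lower (median -0.13). This compares with 14.6% and 13.8% of all measured genes. Dact1 and Dact3 were measured through TIC alone, and for these the filter itself favours a large difference. Without the filter, 3 of the 15 listed genes were higher and 1 lower, against 11.7% and 10.7% of 16400 genes. With a minimum mean of 5 FPKM, 2 were higher, against 12.3%. The count of lower genes was 3 with a pseudocount of 0.1 FPKM and 0 with a pseudocount of 5 FPKM or a minimum mean of 5 FPKM. The Dishevelled-binding genes Dact1 (33.4 FPKM in TIC, 0.272 FPKM in NTC) and Dact3 (5.43 FPKM in TIC, 0.0373 FPKM in NTC) were higher, as was the Dickkopf receptor Kremen1 (39.4 FPKM in TIC, 3.64 FPKM in NTC). Dixdc1, which holds a domain shared with Dishevelled and Axin, was lower (1.92 FPKM in TIC, 7.77 FPKM in NTC).

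The nuclear partners of beta-catenin and of the TCF/LEF factors differed for single genes. Of 14 co-activators 1 was at least 2-fold higher (7.14%) and none lower (median -0.08), beside 14.6% and 13.8% of all measured genes. It was Pygo1, a PHD-finger protein that joins the complex through Bcl9, with 17.2 FPKM in the TIC library, against 0.386 FPKM in the NTC library. Its paralog Pygo2, named after its values were seen, had 11.4 FPKM in the TIC library, against 7.01 FPKM in the NTC library. Of 16 co-repressors and inhibitors, none was at least 2-fold higher and 3 were lower (median -0.02), the lower ones being 18.8% of the list beside 13.8% of all measured genes. After centring on the median gene 1 was higher and 2 were lower, and 2 were lower after upper quartile scaling or with a pseudocount of 5 FPKM. The 3 lower with 1 FPKM added were Tle6 (1.25 FPKM in TIC, 9.16 FPKM in NTC) and Aes (62.4 FPKM in TIC, 132 FPKM in NTC), both of the Groucho family, and Ctnnbip1, which blocks the binding of beta-catenin to TCF (9.60 FPKM in TIC, 24.1 FPKM in NTC).

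Genes described elsewhere as Wnt targets were more often higher than lower in TIC. Of 39 listed, 24 were measured, and at 2-fold 13 of these were higher in TIC (54.2%) and 4 lower (16.7%), with a median of 1.53. The share of lower genes was near the 13.8% of all measured genes, and the share of higher genes was above the 14.6%. With a pseudocount of 5 FPKM, 9 of the 24 were higher, against 9.05% of all measured genes. With a minimum mean of 5 FPKM, 9 of fewer targets were higher, against 12.3%. After centring or upper quartile scaling 3 were lower, against 11.3% and 12.2%. Some targets were measured through 1 library alone, such as Dkk4 in TIC and Wisp2 in NTC, and for these the filter itself favours a large difference. Without the filter, 15 targets were higher and 4 lower, against 11.7% and 10.7% of 16400 genes. The median of the targets was then 0.62. Those most above NTC were Wif1, a secreted Wnt antagonist (486 FPKM in TIC, 0.381 FPKM in NTC), the activin antagonist Fst (46.3 FPKM in TIC, 0.204 FPKM in NTC), the receptor Tnfrsf19 (207 FPKM in TIC, 10.2 FPKM in NTC), Tcf4 (125 FPKM in TIC, 9.51 FPKM in NTC) and the pseudokinase Trib2 (45.3 FPKM in TIC, 7.23 FPKM in NTC). The gene Tcf4 encodes an E protein and is not the TCF4 encoded by Tcf7l2. The 4 lower ones were Wisp2 (0.133 FPKM in TIC, 10.5 FPKM in NTC), Id2 (7.26 FPKM in TIC, 81.1 FPKM in NTC), the survivin gene Birc5 (14.1 FPKM in TIC, 33.7 FPKM in NTC) and cyclin D1, Ccnd1 (327 FPKM in TIC, 692 FPKM in NTC).

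Further feedback genes of the target list were named after their values were seen, for comparison with Axin2 and the Nkd pair. Znrf3, a ligase that removes Wnt receptors, had 33.4 FPKM in the TIC library, against 6.003 FPKM in the NTC library, and its relative Rnf43 had 31.2 FPKM in the TIC library, against 26.8 FPKM in the NTC library. Notum, an enzyme that inactivates Wnt ligands, had 4.06 FPKM in the TIC library, against 0.317 FPKM in the NTC library, and the antagonist Apcdd1 had 8.97 FPKM in the TIC library, against 1.72 FPKM in the NTC library. Dkk4, a secreted inhibitor, had 3.74 FPKM in the TIC library, against a listed 0 in the NTC library. Axin2 and Rnf43 thus stayed within 2-fold while the Nkd pair, Znrf3, Notum and Apcdd1 did not.

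**Figure D4:**
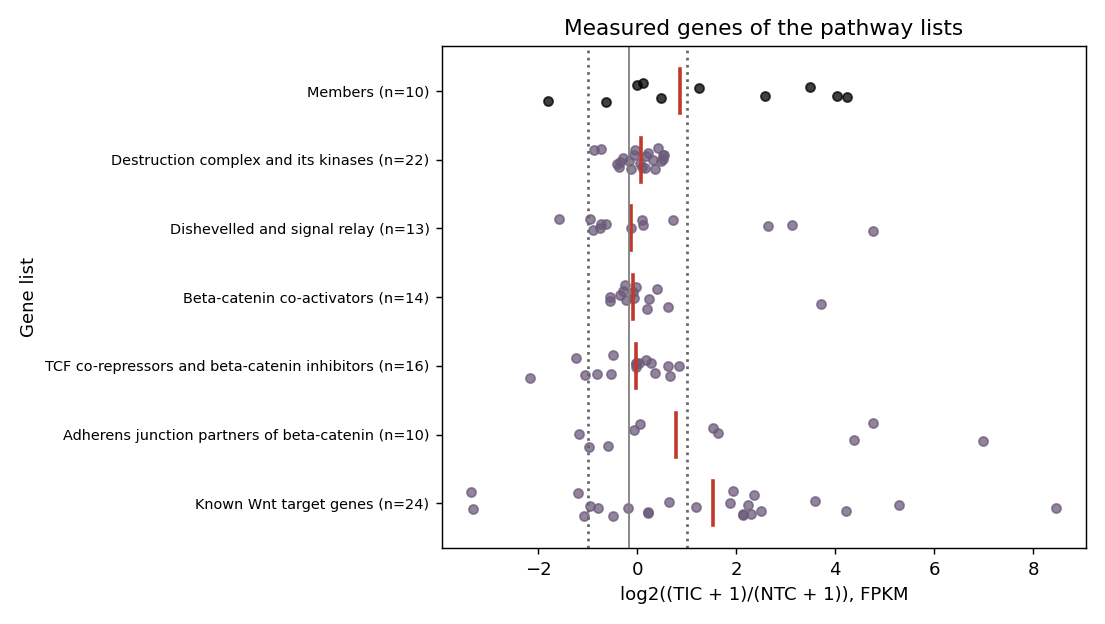
Log2((TIC + 1)/(NTC + 1)) of each measured gene (points) of the members and of 6 pathway lists, with the list median (red bar), the median of all measured genes (grey line) and 2-fold (dotted lines). The destruction complex list lies wholly within 2-fold, and the target list has a median of 1.53 with genes on both sides.

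The level of Wnt1 RNA differed between the libraries as well. Wnt1, a canonical Wnt ligand, had 0.220 FPKM in the TIC library, against 550.4 FPKM in the NTC library, so its transcript was nearly all in the library where Tcf7, Nkd1 and Nkd2 had their lower level. The labels name no transgene, and the deposited values do not separate transcripts of an added copy.

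The libraries also differed in markers of mammary lineage. At 2-fold, 11 of 12 basal markers were higher in TIC and none lower, and 12 of 14 luminal markers were lower and none higher. Of all measured genes, 14.6% were higher and 13.8% lower. The luminal markers within 2-fold, named after their values were seen, had slightly higher levels in TIC. They were Pgr (4.68 FPKM in TIC, 2.95 FPKM in NTC) and Prom1 (23.9 FPKM in TIC, 17.0 FPKM in NTC). The basal markers summed to 4064 FPKM in TIC and 85.4 FPKM in NTC, with Acta2 highest in TIC (2101 FPKM, 6.13 FPKM in NTC). The luminal markers summed to 171 FPKM in TIC and 3558 FPKM in NTC, with Krt19 highest in NTC (2.56 FPKM in TIC, 1176 FPKM in NTC). Fibroblast markers summed to 174 FPKM in TIC and 2.44 FPKM in NTC, most of it Dcn (152 FPKM in TIC, 1.51 FPKM in NTC). The other measured ones were Col1a2 (9.56 FPKM in TIC, 0.0119 FPKM in NTC), Pdgfra (8.83 FPKM in TIC, 0.513 FPKM in NTC) and Pdgfrb (2.44 FPKM in TIC, 0.0701 FPKM in NTC). These passed the filter through TIC alone, so the count of higher ones is not given. Below 1 FPKM in both were Col1a1 (0.459 FPKM in TIC, 0.339 FPKM in NTC), Lum (0.573 FPKM in TIC, listed at 0 in NTC) and Col3a1 (0.221 FPKM in TIC, listed at 0 in NTC). Fap was listed at 0 in both. All but Dcn were named after their values were seen. The part of lineage or stromal cells in the values of the members was not tested.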

How the data were processed

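The authors deposited 1 FPKM value per gene and library. Build mm9, Cufflinks, Cuffdiff, TopHat 1.4.0 and CASAVA 1.8.2 are listed, per the submitters' processing notes, with neither roles nor settings. Per the labels' protocols, 15 ng of total RNA was amplified to cDNA before library making, which can change a gene's share of reads. The locus heading names a human build, but 99.7% of 20009 symbols known to RefSeq lay on the same mouse chromosome in GRCm38, with 4.42% of starts within 1 kb, so positions are given as mm9, with 1 added to starts. Members carry 1 gene name each.

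No count model was used, as FPKM are normalised values. Depth, estimated from 1-read steps in short olfactory and vomeronasal receptor genes, was roughly 21.0 M fragments for the TIC library and 21.6 M for the NTC library. Steps were sought only between 0.035 and 0.065 in FPKM times locus length in kb, in 23 genes for TIC and 39 for NTC. This window limits the depths that could be found, so the estimate is rough. FPKM summed to 332935 in TIC and 376464 in NTC. Read numbers cover counting error only and assume the GENCODE transcript length.

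The members and 14 gene lists (220 of 221 entries found) were chosen with earlier results of these data known. All members were named. In each pathway list up to 5 genes at least 2-fold apart in each direction were named, else the furthest, and in each marker list the highest of each library; further genes are marked as chosen later. The ratio calculation was run on simulated reads with counting error only and changes placed in genes of at least 5 FPKM. That run checks the calculation and says nothing of low genes, amplification or these data. Alternatives were pseudocount, filter, scaling and threshold. Python 3.11.15, pandas 2.3.3 and numpy 2.4.6 were used.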

Additional observations from a re-analysis of the deposited data

How the results depend on the processing

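The count of members at least 2-fold higher in TIC was 4 or 5 under every alternative run, namely pseudocounts of 0.1 and 5, centring, upper quartile scaling, no filter, a minimum mean of 5 FPKM, 1.5-fold and leaving out Lef1. Lef1 was the member lost with a pseudocount of 5 (log2 ratio 1.00, just under the threshold) and with the minimum of 5 FPKM. At 1.5-fold, 2 members were lower, Tcf7l2 and Apc. The median log2 ratio of the members was 1.02 when centred on the median gene. The directions of Tcf7, Nkd1, Nkd2, Ctnnb1 and Tcf7l2 and their 2-fold calls held under each pseudocount and scaling. The log2 ratio of Nkd1 ran between 2.31 and 5.49 over those settings and that of Lef1 between 1.00 and 5.67. Weighted by GENCODE coding length, an alternative chosen after seeing the data, Tcf7 held 58.4% of the TCF/LEF sum in TIC and 2.94% in NTC, Tcf7l2 21.3% in TIC and 79.2% in NTC, and Tcf7l1 18.6% in TIC and 17.9% in NTC. These lengths were of 1 transcript per gene, the protein-coding one with the most bases in total. It need not be the one with the longest coding sequence. The coding bases were 909 in Tcf7, 1191 in Lef1, 1755 in Tcf7l1 and 1818 in Tcf7l2. Other forms of a gene would give other shares. The planned weighting by RefSeq protein length was not run. The median of the target list was 2.22 with a pseudocount of 0.1, 0.58 with 5 and 0.62 without a filter. The median of the Wnt ligands was 0.076 without a filter, against -1.95 with it. Centring gave 16.3% of all measured genes at least 2-fold higher and 11.3% lower. No paired analysis was possible because each group has 1 library. Depth limits Lef1 and Nkd1 in NTC most.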

Other observations

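Beta-catenin also links cadherins to the cytoskeleton at adherens junctions, and its partners there differed between the libraries. Of 14 listed partner genes, 10 were measured. At 2-fold, 5 of these were higher in TIC and 1 was lower, against 14.6% and 13.8% of all measured genes. Their median log2 ratio was 0.79. Cdh3 and Cdh2 were measured through TIC alone, and for these the filter itself favours a large difference. Without the filter, 5 of the 14 were higher and 1 lower, against 11.7% and 10.7% of 16400 genes, and the median was 0.67. With a pseudocount of 0.1 FPKM, 2 were lower, against 16.4% of all measured genes. P-cadherin (Cdh3) had 209 FPKM in the TIC library, against 0.665 FPKM in the NTC library, N-cadherin (Cdh2) 30.8 FPKM in the TIC library, against 0.170 FPKM in the NTC library, and the catenin Ctnnd2 65.1 FPKM in the TIC library, against 2.20 FPKM in the NTC library. Vinculin (Vcl) had 104 FPKM in the TIC library, against 35.4 FPKM in the NTC library, and Ctnnal1 had 21.4 FPKM in the TIC library, against 6.28 FPKM in the NTC library. E-cadherin (Cdh1) was the lower one, with 131 FPKM in the TIC library, against 298 FPKM in the NTC library. The core partner alpha-catenin (Ctnna1, 131 FPKM in TIC and 138 FPKM in NTC) and plakoglobin (Jup, 214 FPKM in TIC and 207 FPKM in NTC), both named after their values were seen, lay within 2-fold.

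Single Wnt ligands had their higher level in either library. Of 19, 7 were measured, most of them through 1 library alone, so that the filter itself favours genes far apart and their count is not given. Higher in TIC were Wnt6 (27.8 FPKM in TIC, 0.0329 FPKM in NTC), Wnt5a (51.0 FPKM in TIC, 18.7 FPKM in NTC) and Wnt10a (2.82 FPKM in TIC, listed at 0 in NTC). Besides Wnt1, those lower in TIC were Wnt5b (2.31 FPKM in TIC, 55.2 FPKM in NTC), Wnt4 (0.0493 FPKM in TIC, 3.95 FPKM in NTC) and Wnt7b (0.242 FPKM in TIC, 3.81 FPKM in NTC). Of the markers of other cell types not given above, those of B cells summed to 0.705 FPKM in TIC and 0.251 FPKM in NTC, and those of endothelial cells to 3.18 FPKM in TIC and 1.37 FPKM in NTC. Myeloid markers summed to 3.41 FPKM in TIC and 248 FPKM in NTC, nearly all of it Cd14 (0.824 FPKM in TIC, 246 FPKM in NTC), while Ptprc, the common leukocyte antigen, was listed at 0 in both.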
